A study of Caenorhabditis elegans with 2 samples.

Results

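Proteasome subunit genes were examined for binding of SNPC-4 in Caenorhabditis elegans larvae of the first stage (L1). The members are all protein-coding genes named pas, pbs, rpn or rpt in the Ensembl annotation of assembly WBcel235, which is build ce11. They number 33 of 19973 nuclear protein-coding genes, of which 7 are pas, 7 pbs, 13 rpn and 6 rpt genes. They were chosen by gene name and no measured value was a criterion, but earlier results of these data were known at the choice. Chromatin immunoprecipitation with sequencing (ChIP-seq) was made from whole worms of strain OP179, genotype unc-119(ed3) III; wgIs179, in which an inserted transgene carries snpc-4 fused to enhanced green fluorescent protein (eGFP). Both samples, biological replicates 1 and 2, carry that transgene and the unc-119 mutation, come from L1 animals of pooled sexes and unknown age, and form 1 group with no second condition. The tagged protein comes from an added transgene, and the labels do not give its promoter or copy number. Whole animals were used, so binding in few cells and weak binding in many cells cannot be told apart.

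The proteasome is the protease that degrades proteins marked with ubiquitin in the cytosol and nucleus. Its barrel, the core particle, is built from rings of alpha subunits (pas genes), which gate the entry, and rings of beta subunits (pbs genes), some of which cut the peptide chain. The regulatory particle caps the barrel: its ATPases (rpt genes) unfold the substrate, and its other subunits (rpn genes) bind ubiquitin, remove it and hold the cap together. SNPC-4 belongs to a complex (SNAPc) best known at the promoters of genes for small nuclear RNAs.

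SNPC-4 summits lay just upstream of most proteasome subunit genes. The thresholded list holds 2347 peaks, cut by the authors with the irreproducible discovery rate, which scores agreement between replicates. All of them are also the 2347 highest peaks of the pooled list, so a single peak need not be matched in both replicates. In the thresholded list 20 of the 33 members had a summit within 500 bp of an annotated transcript 5′ end. This was 60.6% of the members, beside 8.35% of all protein-coding genes (1668 of 19973). The core particle had 9 of 14 members with a summit (64.3%) and the regulatory particle 11 of 19 (57.9%), and by family the counts were 5 of 7 pas, 4 of 7 pbs, 7 of 13 rpn and 4 of 6 rpt genes. Under a stricter window of 250 bp, 15 members had a summit (beside 5.42% of all protein-coding genes), and when the peak interval had to cover a 5′ end 8 had one (beside 3.35%). In the upper part of the list, its 1173 highest peaks, the count was 8 (beside 4.47%). These are counts over genes in lists that combine both replicates, so they carry no replicate error and were not tested.

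The member peaks were of middling height within the list. Signal is the authors' enrichment value for a peak, and it is compared here only within a list. Over the 20 members the median signal was 49.7, beside 55.1 over all 1668 protein-coding genes with a summit, and the median rank was 1306.5 of 2347, beside 1111.5. Above the median of the list (53.3) lay 8 of the 20 members. The median rank was 1222 over the 9 core members and 1377 over the 11 regulatory members. The 20 members had 20 different peaks, and none had more than 1 thresholded summit in the window.

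The 4 windows printed here are centred on the summits of 4 regulatory particle genes with high peaks. They show the DNA at the point of strongest signal and are written 5′ to 3′ on the strand of the gene, with the summit at base 101 of 201. On build ce11 they are chrV:11982422-11982622 for rpt-1 (reverse strand), chrIII:8447052-8447252 for rpn-3 (forward strand), chrV:6017698-6017898 for rpt-2 (reverse strand) and chrII:11239066-11239266 for rpn-9 (reverse strand). Capitals mark a match to the binding site of SKN-1, the transcription factor known for activating proteasome genes in worms, and rpt-2 alone of the 4 holds one.
rpt-1: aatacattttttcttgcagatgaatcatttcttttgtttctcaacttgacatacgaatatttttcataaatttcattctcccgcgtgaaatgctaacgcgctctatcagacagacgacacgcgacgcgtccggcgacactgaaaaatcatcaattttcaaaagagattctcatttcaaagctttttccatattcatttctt
rpn-3: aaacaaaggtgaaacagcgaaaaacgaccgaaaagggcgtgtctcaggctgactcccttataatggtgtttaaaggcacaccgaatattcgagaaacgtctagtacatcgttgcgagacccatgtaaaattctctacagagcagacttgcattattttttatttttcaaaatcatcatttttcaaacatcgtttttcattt
rpt-2: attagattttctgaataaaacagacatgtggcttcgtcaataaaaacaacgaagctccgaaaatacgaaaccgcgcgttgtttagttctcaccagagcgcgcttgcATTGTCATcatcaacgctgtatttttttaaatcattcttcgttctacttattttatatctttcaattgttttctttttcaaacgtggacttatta
rpn-9: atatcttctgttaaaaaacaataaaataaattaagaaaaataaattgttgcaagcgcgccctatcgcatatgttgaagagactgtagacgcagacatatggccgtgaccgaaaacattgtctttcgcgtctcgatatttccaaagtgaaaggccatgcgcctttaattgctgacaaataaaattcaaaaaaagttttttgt
The summits of rpt-1, rpn-3 and rpn-9 lay in intergenic DNA, and that of rpt-2 lay inside the non-coding gene F29G9.10. The guanine and cytosine share of the 4 windows ran from 34.3% in rpt-2 to 37.3% in rpn-3. Over all 20 member windows its median was 35.3% (29.9 to 44.3%), beside 40.8% over the 1261 distinct windows of all protein-coding genes with a summit.

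**Figure D1:**
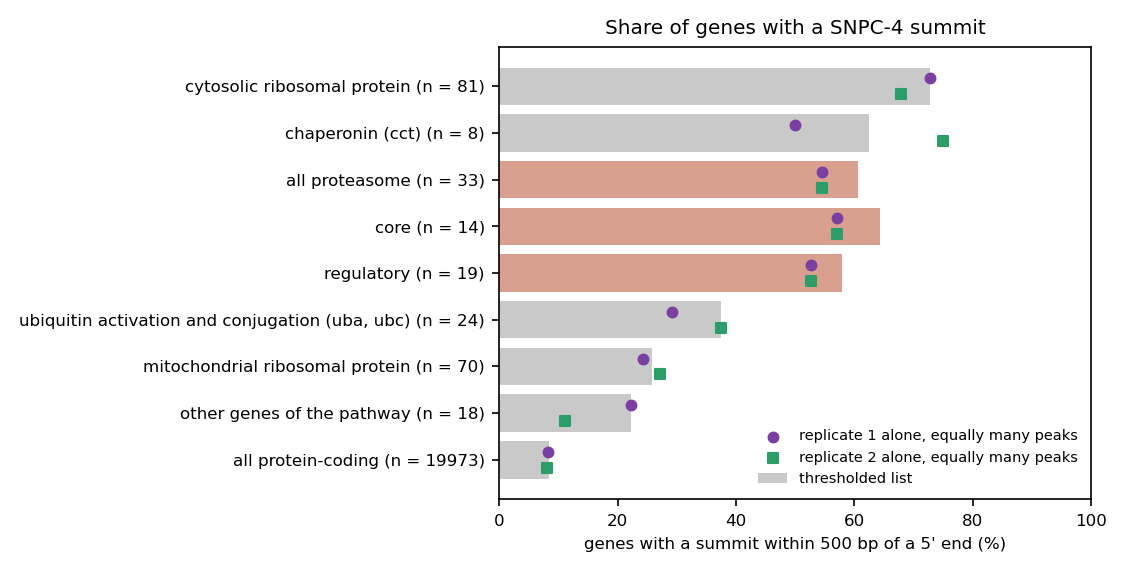
Share of genes (%) with a SNPC-4 summit within 500 bp of a 5′ end, by gene list. Bars give the thresholded list, circles replicate 1 and squares replicate 2, each cut to its 2347 highest peaks. Proteasome genes stand at 60.6%, and all protein-coding genes at 8.35%.

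Among the ATPase genes, rpt-1 had the highest peak of any proteasome gene. Its signal was 202 in the thresholded list (rank 142), 100.3 in replicate 1 (rank 127) and 101 in replicate 2 (rank 168), with the summit 125 bp upstream of the start. The gene rpt-2 followed with a signal of 102 (rank 394), 43.5 in replicate 1 (rank 446) and 55.4 in replicate 2 (rank 438). Both genes ranked within the first 500 peaks in either replicate. For rpt-6 the thresholded signal was 44.1 (rank 1555), and the nearest summits were 19.6 in replicate 1 (rank 1682) and 19.3 in replicate 2 (rank 2312). For rpt-4 it was 40.6 (rank 1724), and the matching summits were at rank 1442 in replicate 1 and rank 2432 in replicate 2. The remaining ATPase genes, rpt-3 and rpt-5, had no thresholded summit in the window.

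The summit of rpt-4 lay in an intron of the gene record, 139 bp upstream of the start of a shorter transcript. When only the 5′ end of the gene record counted, rpt-4 was the 1 member lost, and 19 remained. The peak of rpt-3 lay just outside the window: a thresholded summit of signal 37.2 (rank 1957) stood 659 bp upstream, in the 3′ untranslated region of the neighbour chtb-2. In the replicates this summit ranked 2335 and 3034. At rpt-5 the nearest pooled summit lay 505 bp upstream, with a signal of 25.8 (rank 3072), and the replicate 2 summit lay at 489 bp (rank 3273).

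Among the rpn genes, which encode the subunits of the regulatory particle other than the ATPases, rpn-3 had the highest peak. It encodes a lid subunit, and its signal was 126 in the thresholded list (rank 277), 64.9 in replicate 1 (rank 227) and 64.5 in replicate 2 (rank 338). The lid gene rpn-9 came next with 82.4 (rank 578), 31.8 in replicate 1 (rank 803) and 50.9 in replicate 2 (rank 509). These 2 genes stood above the other rpn genes in the thresholded list. The gene rpn-11, which encodes the deubiquitinase that strips ubiquitin from the substrate, had a signal of 51.3 (rank 1236), 26.8 in replicate 1 (rank 1069) and 28.6 in replicate 2 (rank 1330). Its partner in the lid, rpn-8, ranked 1377 in the thresholded list, with a signal of 16.8 in replicate 1 (rank 2139) and 29.9 in replicate 2 (rank 1246).

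The lower rpn peaks were those of rpn-2, rpn-5 and rpn-13. The base scaffold gene rpn-2 had a signal of 42.8 (rank 1615), with a matching summit at rank 1736 in replicate 1 and at rank 1353 in replicate 2. In replicate 2 a small summit of rank 19731 lay nearer to the start of rpn-2, at 154 bp, than the matching one at 354 bp. The lid gene rpn-5 had a signal of 39.9 (rank 1765), 18.5 in replicate 1 (rank 1825) and 20.8 in replicate 2 (rank 2076). The ubiquitin receptor gene rpn-13 was the member just inside the threshold, with a signal of 32.4 at rank 2332 of 2347, where the lowest signal of the list was 32.3. Its summits ranked 3438 in replicate 1 and 2480 in replicate 2, past the 2347 highest of both.

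**Figure D2:**
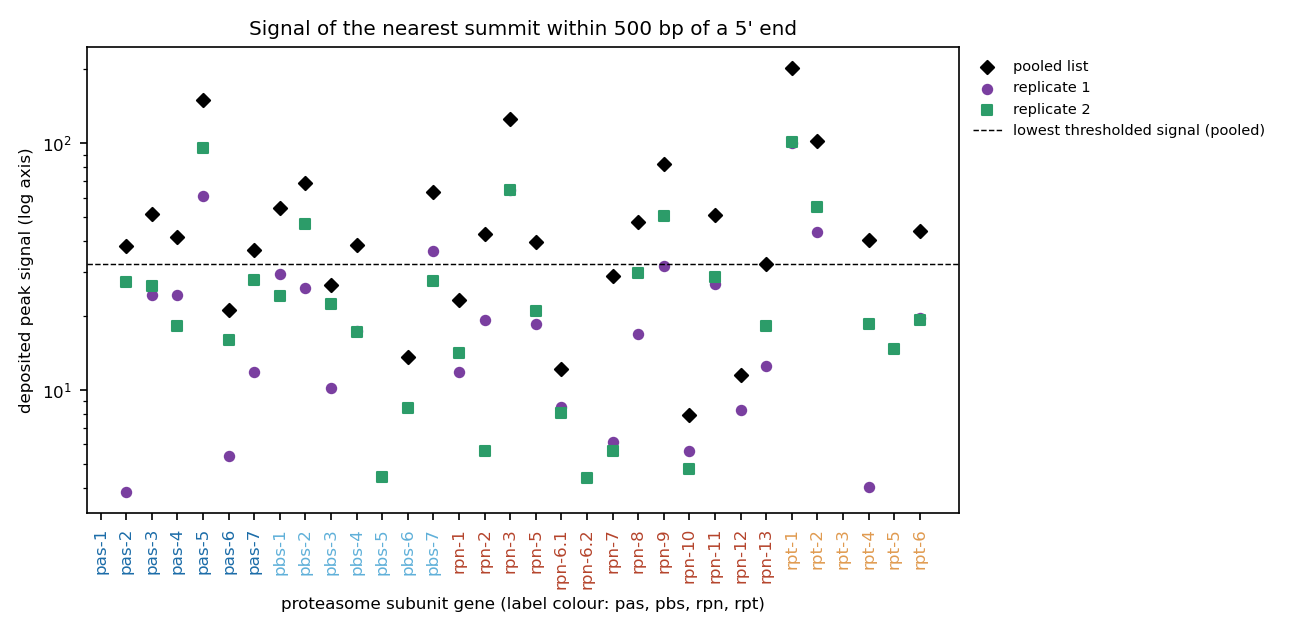
Deposited peak signal (log axis) of the nearest summit within 500 bp for each of the 33 proteasome genes, in the pooled list, replicate 1 and replicate 2. The dashed line is the lowest thresholded signal (32.3), and rpt-1, pas-5, rpn-3 and rpt-2 stand highest. Scales differ between lists, so heights are read within a list.

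In the alpha ring, pas-5 had the highest peak. Its signal was 149.7 in the thresholded list (rank 205), 60.9 in replicate 1 (rank 247) and 96.0 in replicate 2 (rank 186), at a summit 319 bp upstream. The other bound alpha genes had signals between 36.9 and 51.7. For pas-3 the signal was 51.7 (rank 1222), with 24.2 in replicate 1 (rank 1234) and 26.3 in replicate 2 (rank 1510). For pas-4 it was 41.8 (rank 1659), with 24.3 in replicate 1 (rank 1226) and 18.1 in replicate 2 (rank 2484). These 2 genes ranked higher in replicate 1, whereas pas-2 and pas-7 ranked higher in replicate 2. The signal of pas-7 was 36.9 (rank 1982), with 11.8 in replicate 1 (rank 3729) and 27.9 in replicate 2 (rank 1371). That of pas-2 was 38.3 (rank 1882), with 27.3 in replicate 2 (rank 1423), whereas in replicate 1 the nearest summit was at rank 27983 and the strongest, 303 bp upstream, at rank 2330.

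In the beta ring, 2 of the 3 genes for catalytic subunits had a thresholded summit. The gene pbs-2, for the trypsin-like subunit, had a signal of 69.2 (rank 777), 25.8 in replicate 1 (rank 1128) and 47.3 in replicate 2 (rank 573). The gene pbs-1, for the caspase-like subunit, had 54.7 (rank 1124), 29.6 in replicate 1 (rank 917) and 24.0 in replicate 2 (rank 1716). The gene for the chymotrypsin-like subunit, pbs-5, had none. Among the structural beta genes, pbs-7 had a signal of 63.7 (rank 871), 36.4 in replicate 1 (rank 638) and 27.6 in replicate 2 (rank 1394). The signal of pbs-4 was 38.7 (rank 1853), 17.3 in replicate 1 (rank 2040) and 17.2 in replicate 2 (rank 2649). None of the beta genes ranked within the first 500 peaks. Over all protein-coding genes with a thresholded summit, 351 of 1668 did, so the absence among so few beta genes says nothing particular of them.

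Most of the 13 members without a thresholded summit had a summit in the pooled relaxed list. That list holds 30000 entries and is labelled as peaks and background, so a weak entry need not be binding. In that list 28 of the 33 members had a summit in the window (84.8%), beside 37.9% of all protein-coding genes, and the median rank of those 28 was 1691.5, beside 10278. In the relaxed lists of the replicates the counts were 27 of 33 in replicate 1 (81.8%, beside 38.4%) and 30 of 33 in replicate 2 (90.9%, beside 38.7%). The 8 members found in the pooled list but not in the thresholded one ranked between 2693 and 23564, with a median of 6105.5. The deposited −log10 q of their nearest pooled summit was 2.95 at rpn-7 and pbs-3, 2.57 at rpn-1 and 2.23 at pas-6. It was lower at pbs-6 (0.658), rpn-6.1 (0.443), rpn-12 (0.375) and rpn-10 (0.087).

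The member just outside the threshold was rpn-7, a lid gene, with a pooled signal of 28.9 (rank 2693). Its matching summits differed between the replicates, at rank 13745 in replicate 1 and rank 1901 in replicate 2. The beta gene pbs-3 had a pooled rank of 2969 and a matching summit at rank 1916 in replicate 2. In replicate 1 no summit matched, and the nearest, at rank 4906, lay 134 bp downstream of the start. The pooled summit of pbs-3 lay in the 3′ untranslated region of the neighbour ulp-2. The base scaffold gene rpn-1 had pooled rank 3509 and the alpha gene pas-6 had rank 3956. The lid gene rpn-6.1 had its nearest pooled summit at rank 10472, and a stronger one at rank 3030 lay 429 bp upstream. The beta gene pbs-6 stood at rank 8255, the lid gene rpn-12 at rank 11581 and the ubiquitin receptor gene rpn-10 at rank 23564.

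No pooled summit lay within 500 bp of pas-1, pbs-5, rpn-6.2, rpt-3 or rpt-5. Their nearest pooled summits lay 505 to 715 bp away, inside 1000 bp for all 5. For pas-1 (signal 7.42, rank 25818) and rpn-6.2 (signal 8.63, rank 20210), the paralog of rpn-6.1, the nearest summit lay within a coding exon of the gene itself. For pbs-5 it was a weak summit in a coding exon of its neighbour K05C4.2 (signal 6.72, rank 29762). In the 4 lists together, pas-1 and rpt-3 were the 2 members with no summit in the window.

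The replicates were compared over the 2347 highest peaks of each. Replicate 1 had a summit within 500 bp of 18 members, beside 8.23% of all protein-coding genes, and replicate 2 also of 18, beside 8.04%. In either replicate these were 8 core and 10 regulatory genes (54.5% of all members). Both replicates had such a summit at 15 members (45.5%), beside 5.98% of all protein-coding genes, and neither had one at 12. The highest peaks were the same genes in both: rpt-1, pas-5, rpn-3 and rpt-2 ranked within the first 500 in the thresholded list and in either replicate. In the thresholded list these were 4 of the 20 bound members, beside 351 of 1668 bound protein-coding genes.

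Positions were compared more strictly by asking for a summit within 100 bp of the thresholded one among the 2347 highest of each replicate. This held in both replicates for 13 of the 20 bound members (65.0%), beside 68.3% of all bound protein-coding genes. The thresholded list was made from these replicates, so part of this match is built in. The match was found in replicate 1 alone for pas-4, pbs-4 and rpt-4, in replicate 2 alone for pas-2, pas-7 and rpt-6, and in neither for rpn-13. Over the 26 members with a summit in the window in both relaxed lists, Spearman's rho of signal was 0.705, beside 0.592 over 4778 protein-coding genes. Both values describe genes within the same pair of libraries, and the genes are not replicates.

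**Figure D3:**
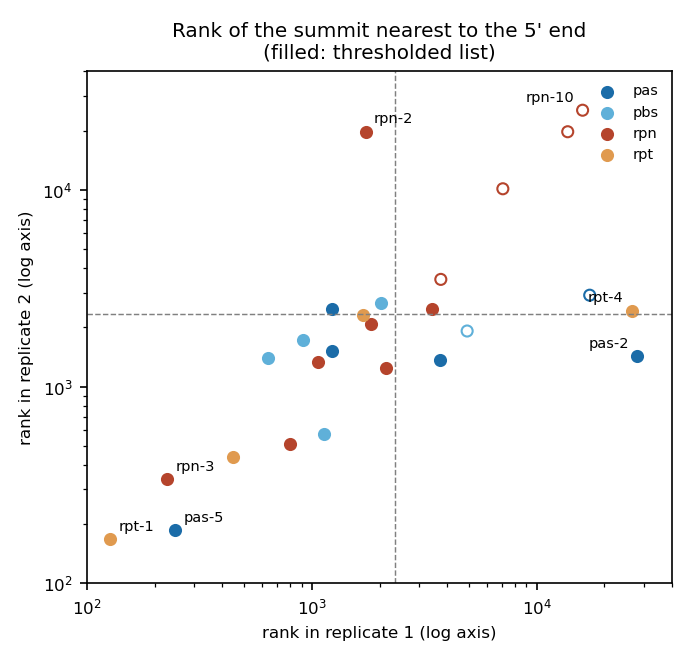
Rank of the summit nearest to the 5′ end in replicate 1 and replicate 2 (log axes) for the 26 proteasome genes with a summit in both, coloured by family and filled where the gene has a thresholded summit. Dashed lines mark rank 2347. The 4 highest genes lie low on both axes, and pas-2, rpt-4 and rpn-2 lie far from the diagonal because a weak summit was nearest in 1 replicate.

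The summits sat upstream of the annotated starts. All 20 thresholded summits of members were upstream, beside 92.7% of all bound protein-coding genes. The median offset was -191.5 bp, where a negative value is upstream, with the middle of the distribution from -250.75 to -137.25 bp and a range of -354 to -28 bp. Over all bound protein-coding genes the median was -177 bp. The closest summits were those of rpn-5 at 28 bp and rpn-11 at 46 bp, and the farthest was that of rpn-2 at 354 bp. The summits of rpt-1, rpt-2 and rpt-4 lay between 125 and 139 bp upstream, and rpt-6 lay at 237 bp.

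Annotated starts in worms are often the site of trans-splicing rather than of transcription, so an offset is a distance to the annotated start. By annotation 14 of the 20 summits were intergenic (70%), beside 77.5% of all bound protein-coding genes. The summits of pas-4, pas-7 and rpt-2 fell in non-coding genes. Those of pas-2 and pas-3 fell in the 5′ untranslated region of a neighbour, and that of rpt-4 in an intron.

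**Figure D4:**
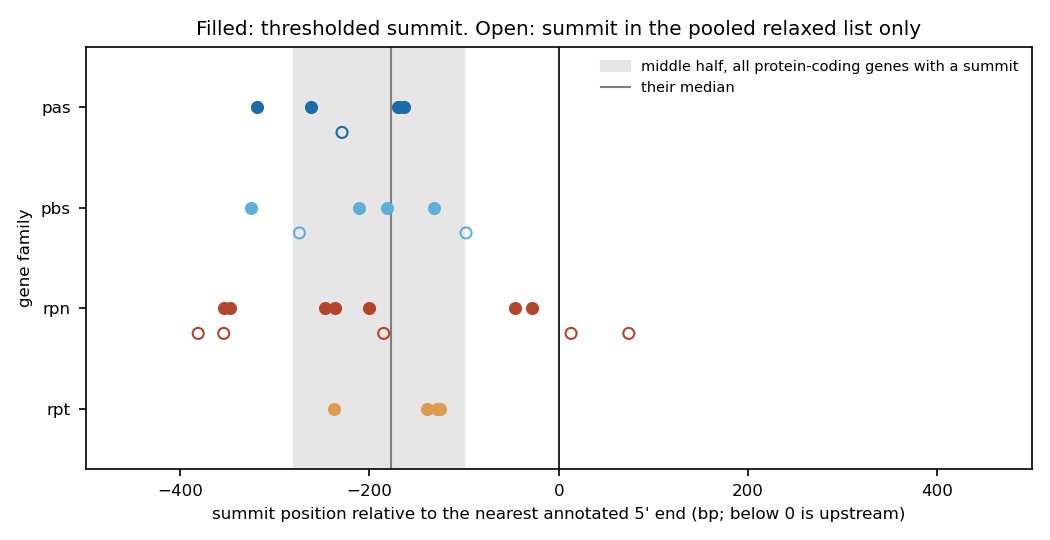
Position of the summit (bp) relative to the nearest annotated 5′ end for proteasome genes by family, with negative values upstream. Filled circles are thresholded summits and open circles summits of the pooled relaxed list only; the grey band and line give the middle part and the median (-177 bp) of all bound protein-coding genes. All filled circles lie upstream.

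Most of the peaks stood between a proteasome gene and a gene on the other strand. Of the 20 bound members, 14 had the 5′ end of another protein-coding gene within 500 bp of the same summit, beside 48.3% of all bound protein-coding genes, and all 14 neighbours lay on the opposite strand. In 12 of the 14 pairs the summit was upstream of both starts, at the divergent promoter between them. Counting genes of any class, 14 members shared their peak within 500 bp (beside 57.7%), 8 within 250 bp (beside 42.9%) and 16 within 1000 bp (beside 69.4%). The starts of a pair were 151 to 770 bp apart. The summit was nearer to the proteasome gene in 9 pairs and nearer to the neighbour in 5, so the lists do not assign these peaks to 1 gene of the pair. None of the 20 summits had the start of a small nuclear RNA, spliced leader RNA, small nucleolar RNA or transfer RNA gene within 500 bp, beside 5.04% of all bound protein-coding genes. With so low a share, this absence says nothing particular of the members.

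The neighbours were of many kinds. In the regulatory particle, rpn-3 shared its peak with hsp-110, a chaperone gene, whose start lay 243 bp from the summit, beside 201 bp for rpn-3. The peak of rpt-2 was shared with aps-1, a clathrin adaptor gene, that of rpt-4 with nfyc-1, a gene for a subunit of the transcription factor NF-Y, and that of rpn-5 with scc-1, a cohesin gene. The gene rpn-8 faced mrps-6, a mitochondrial ribosomal protein gene, while rpn-2 faced C23G10.7 and rpn-9 faced T06D8.9. In the core particle, pas-4 shared its peak with rpb-3, a gene for an RNA polymerase II subunit, pbs-2 with eif-6, a ribosome assembly and translation factor gene, and pas-7 with puf-12. The partners of pas-2, pas-3, pbs-1 and pbs-7 were D1054.1, use-1, K08D12.3 and F39H11.1. At pas-3 the summit lay 7 bp and at pas-2 18 bp inside the neighbour's transcript. No partner within 500 bp was found for pas-5, pbs-4, rpn-11, rpn-13, rpt-1 and rpt-6, among them the 2 members with the highest peaks.

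Divergent neighbours were common among the members. A divergent protein-coding neighbour within 1000 bp stood upstream of 20 of the 33 members (60.6%), beside 17.5% of all protein-coding genes. Of these 20 members, 13 had a thresholded summit (65.0%), beside 24.3% of all protein-coding genes in the same arrangement. A same-strand gene ending within 500 bp upstream, as in worm operons, preceded 8 members, of which 2 had a summit (25%), beside 5.37% of all genes so arranged. These classes were taken from the 5′ end of the gene record. The other 5 members, pas-5, pbs-4, rpt-1, rpt-4 and rpt-6, had neither neighbour within those limits, and all 5 had a summit, beside 4.84%. For rpt-4 the record starts upstream of the transcript start near its summit, and that start has the divergent neighbour nfyc-1 described above. Within each arrangement the share of members was above that of all genes, in groups of 5 to 20 members that were not tested.

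The 5 members that follow a same-strand gene most closely had no thresholded summit. Of all protein-coding genes with a same-strand gene ending within 250 bp upstream, 3.61% had one (80 of 2217). With so low a share, the absence says nothing particular of these 5 members. A gene ended 22 bp upstream of pbs-3, 54 bp upstream of rpn-6.2, 106 bp upstream of pas-1, 110 bp upstream of pbs-5 and 118 bp upstream of rpn-10. The 4 bound members with a same-strand neighbour had gaps of 224 bp (rpn-11), 462 bp (rpn-13), 503 bp (rpt-1) and 1446 bp (pas-5), and rpt-3, with none, had a gap of 478 bp. The gap of rpt-1 lies just past the limit of 500 bp. At the first gene of the same-strand run, a thresholded summit stood 296 bp upstream of rrsr-1, the head of the run that ends in pas-1 (signal 58.5, rank 1011). Another stood 283 bp upstream of K05C4.2, which precedes pbs-5 (signal 74.4, rank 684). The heads of the runs of pbs-3, rpn-6.2, rpn-10 and rpt-3 had none within 500 bp, and neither had those of rpn-11 and rpn-13. The share over heads of such runs in all protein-coding genes was not counted. These runs were defined from the annotated gaps alone, and annotated operons were not used here.

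**Figure D5:**
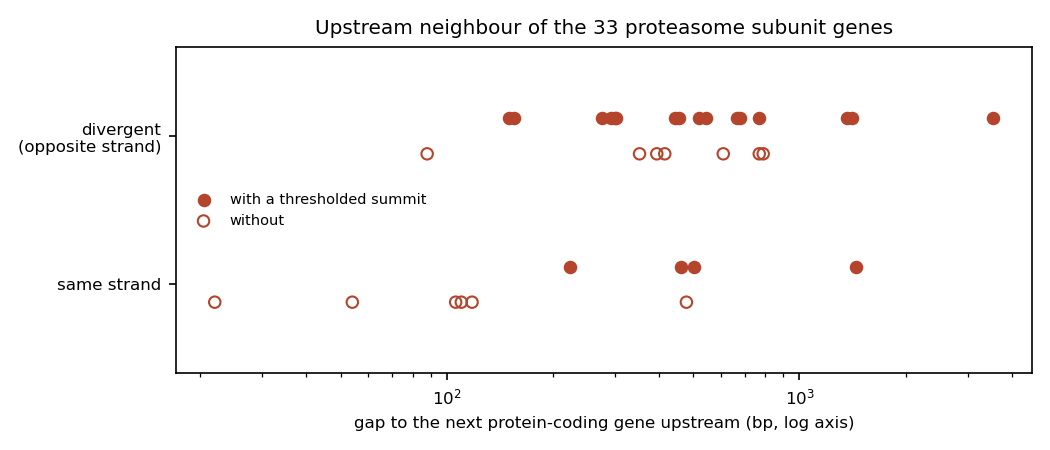
Gap (bp, log axis) from each of the 33 proteasome genes to the next protein-coding gene upstream, split by the strand of that gene. Filled circles have a thresholded summit. On the same strand the 5 genes with gaps of 22 to 118 bp are all open, and on the opposite strand filled and open circles mix. Of all protein-coding genes with a same-strand gap of at most 250 bp, 3.61% had a thresholded summit.

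A site of SKN-1 stood near the summit in 8 of the 20 bound members. The site was searched on both strands, in its 8 forms AATATCAT, AATGTCAT, ATTATCAT, ATTGTCAT, TATATCAT, TATGTCAT, TTTATCAT and TTTGTCAT, within 100 bp of the summit. The share was 40.0%, beside 6.11% of the 1261 windows of all bound protein-coding genes, and it comprised 2 core and 6 regulatory members. The form ATTGTCAT made up 6 of the 8, or 30% of member windows beside 1.27% of all, and this form was singled out after its counts were seen. The base of the site nearest to the summit lay 6 to 70 bp from it. The median guanine and cytosine share of the windows was 35.3% for members and 40.8% for all, and its part in the word counts was not tested. A match is only a match of letters, and no data on SKN-1 binding were used here.

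Of the 8 sites, 6 are printed so that their surroundings can be compared. All 6 lie outside untranslated regions. Each stretch has 28 bases, runs 5′ to 3′ on the strand of the site, and has the site in capitals. On build ce11 the stretches are chrV:6017775-6017802 for rpt-2 (reverse strand), chrIV:1709873-1709900 for pbs-1 (forward strand), chrIII:12370250-12370277 for rpt-6 (forward strand), chrIII:6198866-6198893 for rpn-2 (reverse strand), chrII:43775-43802 for rpt-4 (forward strand), chrV:10770247-10770274 for pas-2 (reverse strand).
rpt-2: gcgcgcttgcATTGTCATcatcaacgct
pbs-1: cagaaaaaacATTGTCATcaaatctcaa
rpt-6: ctccggttgaAATATCATcatttttaaa
rpn-2: tgtggtcagaATTGTCATcctccgcgat
rpt-4: cagaattgaaATTGTCATcgtgtccaac
pas-2: acccggtgaaATTGTCATcattcgaact
Each of the 6 printed sites was followed by c, and those of rpt-2, rpt-6 and pas-2 by cat, while the others differed beyond the c. The base after the site was not counted over all bound protein-coding genes, so this is not shown to be particular to the members. The sites of rpt-2 and rpt-4 were the nearest to their summits, at 6 and 9 bp. The other sites are not printed: that of rpn-11 lies in its untranslated region, and that of rpn-8, of the form AATATCAT, begins 20 bp from an intergenic summit.

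Promoters were taken from 250 bp before to 50 bp after the 5′ end of the gene record and do not depend on the peaks. They leave out the summits of pas-5, pas-7, pbs-2, rpn-2, rpn-13 and rpt-4. The SKN-1 site was in 11 of 33 member promoters (33.3%), beside 16.5% of 19865 protein-coding promoters. It was in 8 of the 20 promoters of members with a thresholded summit (40.0%). Of the 13 promoters of members without one, 3 held it (23.1%), those of pas-6, pbs-6 and rpn-12. The repeat GAGAG was in 4 of the 20 member summit windows (20%), beside 50.4% of all, and in 42.4% of member promoters, beside 39.9% of all. The word CGGAACCC, the most frequent 8-base word upstream of bound small RNA genes, was in 34 of 141 windows of 100 bp upstream of such genes (24.1%) and in 0 of the 20 member windows. It was in 2.93% of the windows of all bound protein-coding genes. None of the member promoters held it, beside 0.267% of all protein-coding promoters. With shares this low over all protein-coding genes, its absence says nothing particular of the members among them. None of these word counts was tested.

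Other large complexes also had many bound genes. Of 81 cytosolic ribosomal protein genes 59 had a thresholded summit (72.8%), and of 8 genes of the chaperonin complex 5 had one (62.5%). The counts were 9 of 24 (37.5%) for genes of ubiquitin activation and conjugation and 18 of 70 (25.7%) for mitochondrial ribosomal protein genes. The bound ribosomal protein genes had a median signal of 73.1 and a median offset of -280 bp, beside 49.7 and -191.5 bp for proteasome genes. The SKN-1 site was in 1 of 56 summit windows of cytosolic ribosomal protein genes and in none of the 5 chaperonin windows. Differences between these lists were not tested.

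Of 18 genes that act with the proteasome, 4 had a thresholded summit (22.2%). Of 6 proteasome partners 3 were bound: usp-14, a deubiquitinase gene (signal 71.1, rank 740), aip-1 (40.9, rank 1708) and ubh-4, another deubiquitinase gene (34.6, rank 2149). Of 7 substrate delivery genes 1 was bound, cdc-48.1, the gene of a segregase that pulls substrates from complexes, with a signal of 223 (rank 125) that was above that of any subunit gene. The related gene cdc-48.2 had no thresholded summit within 500 bp. None of the 5 genes that control proteasome expression through SKN-1A (skn-1, ddi-1, png-1, sel-1 and sel-11) had one, and with a share of 8.35% over all protein-coding genes a count of 0 of 5 says nothing particular of this list. In the pooled relaxed list, which includes background, all 5 had a summit (beside 37.9%), at a median rank of 5923. At a distance of 547 bp, ubql-1 had a thresholded summit just outside the window (signal 42.4, rank 1635).

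By chromosome, bound members were 7 of 10 on chromosome I (beside 11.99% of its protein-coding genes), 5 of 7 on II (beside 8.32%), 4 of 8 on III (beside 11.9%), 1 of 3 on IV (beside 8.17%) and 3 of 5 on V (beside 6.39%). X holds no member. The summit of pas-5, the highest of the core particle, lay at position 10566031 of chromosome I, between genes.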

How the data were processed

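ChIP-seq against eGFP-SNPC-4 had 2 biological replicates in 1 group. The fragment size range was 150 to 350 bp in the labels. Aligner and peak caller: not given in the sources used here. The authors made a relaxed list of 30000 peaks per replicate and for pooled alignments, with a control, and a thresholded list of 2347 by the irreproducible discovery rate, per the deposited notes. The pooled relaxed list is labelled as peaks and background. The deposited signal is the authors' enrichment value, of unstated scale, and ranks peaks within a list. The deposited −log10 q values were not used to select peaks. Depth is unknown, so no counting error is given.

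Summits on ce11 were matched to transcript 5′ ends (Ensembl 115), and sequences were read from the RefSeq genome. The nearest summit counted for a gene. The method was tested on simulated data. Members and lists were chosen with earlier results of these data known, and no test was made. Named genes were all members, the neighbours sharing their peaks, and genes of the other lists with a thresholded summit; cdc-48.2, ubql-1, the SKN-1A list and the heads of same-strand runs were named after their values were seen. Alternatives were other windows, gap limits and summit distances, peak intervals, gene records, the upper part of the list and each replicate left out. Python 3.11.15, numpy 2.4.6, pandas 2.3.3 and matplotlib 3.10.9 were used.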

Additional observations from a re-analysis of the deposited data

How the results depend on the processing

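Under a window of 250 bp, 15 members had a thresholded summit, and under 1000 bp 21, with all protein-coding genes at 1082 and 2153. When the peak interval had to cover a 5′ end, 8 members remained (4 core, 4 regulatory), or 24.2% beside 3.35% of all (669 genes). In the upper part of the list (1173 peaks) the counts were again 8 members, 4 core and 4 regulatory, or 24.2% beside 4.47% (893 genes). Leaving out a replicate meant taking the 2347 highest peaks of the other, not remaking the thresholded list. Members then numbered 18 in either case (20 in the thresholded list), core members 8 (9), regulatory members 10 (11), and all protein-coding genes 1606 to 1643 (1668). Without replicate 1, pbs-3 and rpn-7 were gained and pas-4, pbs-4, rpn-13 and rpt-4 lost, and without replicate 2, pas-7 and rpn-13 were lost. Leaving out peaks near small RNA starts, added after seeing the data, kept 20 members.

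Shared peaks fell from 14 to 8 members at 250 bp. Gap limits, set after seeing the data, changed how many genes qualify: at 250 bp 1 of 6 same-strand members was bound (16.7%, beside 3.61% of all), and at 500 bp 8 of 12 divergent members (66.7%, beside 29.4%). No paired analysis was possible because the samples form 1 group. Signal has no replicate error within the thresholded list, and depth, unknown here, limits what the weak summits show.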
